A study of Mus musculus with 6 samples.

Results

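The genes described are those of the G1 step of the cell cycle: the D-type cyclins Ccnd1, Ccnd2 and Ccnd3, the E-type cyclins Ccne1 and Ccne2, the kinases Cdk2, Cdk4 and Cdk6, the pocket protein gene Rb1 and the transcription factor gene E2f1. They were taken by symbol from the deposited table of gene counts. All 10 were found among its 24091 genes, and all 10 were among the 13413 genes with enough counts to be tested. RNA had been sequenced from hematopoietic stem cells, which renew the blood from the bone marrow, gated on absence of lineage markers and CD48 and presence of Sca-1, c-Kit and CD150. The aged group held 3 libraries (aged 1, aged 2 and aged 3) at an age of 20 months, the young group 3 libraries (young 4, young 5 and young 6) at an age of 2 months, and both are labelled wt. Pools were of 4 mice in the aged and 30 mice in the young group. Whether each pool or a whole group held so many mice is not given, so a p-value here covers only differences between pools, some of which may be technical. The strain is not given in the sources used here.

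In G1, D-type cyclins activate Cdk4 and Cdk6, which begin to phosphorylate the Rb protein, and E-type cyclins then activate Cdk2, which completes it. Phosphorylated Rb releases E2F factors, which switch on genes of DNA replication, cyclin E among them. Most blood stem cells of adult mice rest outside the cycle, and in human blood stem cells the amount of CDK6 is known to set how fast resting cells re-enter it.

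Aged cells had more Ccnd1 RNA than young cells in every library and less RNA of Ccne1, Ccne2, Cdk2, Cdk6, Rb1 and E2f1 in every library, while Ccnd2, Ccnd3 and Cdk4 overlapped between the ages. Only Cdk2 passed the threshold (the quasi-likelihood test of edgeR, Benjamini-Hochberg adjusted p under 0.05), and it fell 1.61-fold. Thus 1 of 10 genes was called, lower, beside 5.76% of all 13413 tested genes called, 1.5% lower and 4.26% higher. Before adjustment, 6 members were lower and 1 higher at p under 0.05, beside 11.1% lower and 13.9% higher of all tested genes. Libraries of the 2 ages were fully separate for 6 members on the lower and 1 on the higher side, beside 17.6% and 19.0% of all tested genes. The log2 fold change was below 0 for 8 of 10 members, beside 47.3% of tested genes. DESeq2 called 5 of the 10 lower (Ccne1, Ccne2, Cdk2, Cdk6 and E2f1), beside 6.9% of all genes by that tool. Limma-voom with quality weights called 7 of 10, beside 30.5% of all genes. With edgeR, leaving out young 4 gave 2 lower members (Ccne1 and Cdk2) beside 2.54% of genes, removing each library's trend over GC content and length gave 3 (Ccne2, Cdk2 and E2f1) beside 4.95%, and dropping the low-count filter gave 3 (Ccne1, Ccne2 and Cdk6) beside 1.57%. EdgeR called 0 members with upper-quartile scaling, library totals alone, a stricter count filter or robust empirical Bayes, beside 443 to 872 calls over all genes. It also called 0 with any single library but young 4 left out, beside 74 to 282. In bulk samples such as these, fewer cells in cycle and less RNA per cell cannot be told apart.

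The start regions of the 3 kinases are shown, because the called member and the abundant members with a match to a searched motif are among them. The windows come from RefSeq (GRCm38.p6, the mm10 assembly), and run 5′ to 3′ on the gene's strand from 250 bases before to 50 after a transcript start. Capitals mark the E-box CACGTG, which Myc proteins and other basic helix-loop-helix factors can bind, and the E2F motif in its forms TTTCCCGC, TTTCGCGC, TTTGCCGC and TTTGGCGC. Both strands were searched and no E-box match overlapped an E2F match. A GC box, GGGCGG, was searched in the same way but is left in lower case.
Cdk2 (chr10:128705002-128705301, minus strand): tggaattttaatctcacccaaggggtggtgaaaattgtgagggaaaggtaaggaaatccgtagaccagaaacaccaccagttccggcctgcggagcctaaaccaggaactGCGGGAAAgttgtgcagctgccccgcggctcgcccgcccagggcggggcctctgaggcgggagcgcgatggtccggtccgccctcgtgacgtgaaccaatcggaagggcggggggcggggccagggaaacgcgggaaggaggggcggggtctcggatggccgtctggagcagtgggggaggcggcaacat
Cdk4 (chr10:127063285-127063584, plus strand): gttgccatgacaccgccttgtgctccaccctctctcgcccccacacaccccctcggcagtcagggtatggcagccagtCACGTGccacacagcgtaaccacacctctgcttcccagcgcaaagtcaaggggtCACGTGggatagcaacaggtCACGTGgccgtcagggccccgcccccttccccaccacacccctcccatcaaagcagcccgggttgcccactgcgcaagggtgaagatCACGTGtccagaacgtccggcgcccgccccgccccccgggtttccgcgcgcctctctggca
Cdk6 (chr5:3343643-3343942, plus strand): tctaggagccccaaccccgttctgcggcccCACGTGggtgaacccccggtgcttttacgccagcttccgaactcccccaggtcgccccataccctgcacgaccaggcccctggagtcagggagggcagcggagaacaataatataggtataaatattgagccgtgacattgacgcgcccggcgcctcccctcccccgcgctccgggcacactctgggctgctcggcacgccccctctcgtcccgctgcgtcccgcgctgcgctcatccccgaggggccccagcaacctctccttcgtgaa
The Cdk4 window held 4 E-boxes, 172, 118, 98 and 11 bases before the start (counted to the motif's first base). Of the 32851 windows of this length, 0.0244% held at least 4. Cdk6 held 1 E-box, 220 bases before its start, and 7.15% of windows held at least 1. Cdk2 held 1 E2F motif, printed on the gene's strand as the reverse complement of TTTCCCGC, and 2.26% of windows held at least 1. GC boxes numbered 6 in Cdk2, 3 in Cdk4 and 0 in Cdk6, with at least 6 in 1.35% of windows, at least 3 in 10.7% and at least 1 in 35.7%. The start used for Cdk4 lies 68 bases upstream of the gene's start in the deposited table. Windows were also found for Ccnd3 (at 2 starts), Ccne1 and E2f1, and those held neither E-box nor E2F motif, but the E2f1 start lies 466 bases downstream of the gene's start in the table and the second Ccnd3 start 88416 bases downstream. No window was used for Ccnd1, Ccnd2, Ccne2 or Rb1.

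Depth and library quality bear on all of these values. Gene counts summed to between 16452829 and 21918658 per library. The smallest count of any member in any library was 111 (Ccne2 in aged 3 and E2f1 in aged 2). Aged 2 had counts in 20918 genes, against 16782 and 17057 in the other aged and 16084 to 16435 in young libraries. Young 4 stood apart: its log2(CPM + 1) values over the 13413 tested genes (genes are not independent replicates) had a Pearson's r of 0.956 with young 5 and 0.953 with young 6. Between young 5 and young 6 it was 0.994, and between these 2 and the aged libraries 0.949 to 0.964. The TMM scaling factor was 0.765 for young 4 and 1.04 to 1.08 for the other libraries. CPM is a count relative to library size, here TMM-scaled. Stem cell genes were present in every library, with Kit, which encodes c-Kit, at 1033, 862 and 1033 CPM in aged and 320, 709 and 868 CPM in young libraries, and the stem cell transcription factor gene Hlf at 204 to 318 CPM in aged and 194 to 236 CPM in young libraries.

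**Figure D1:**
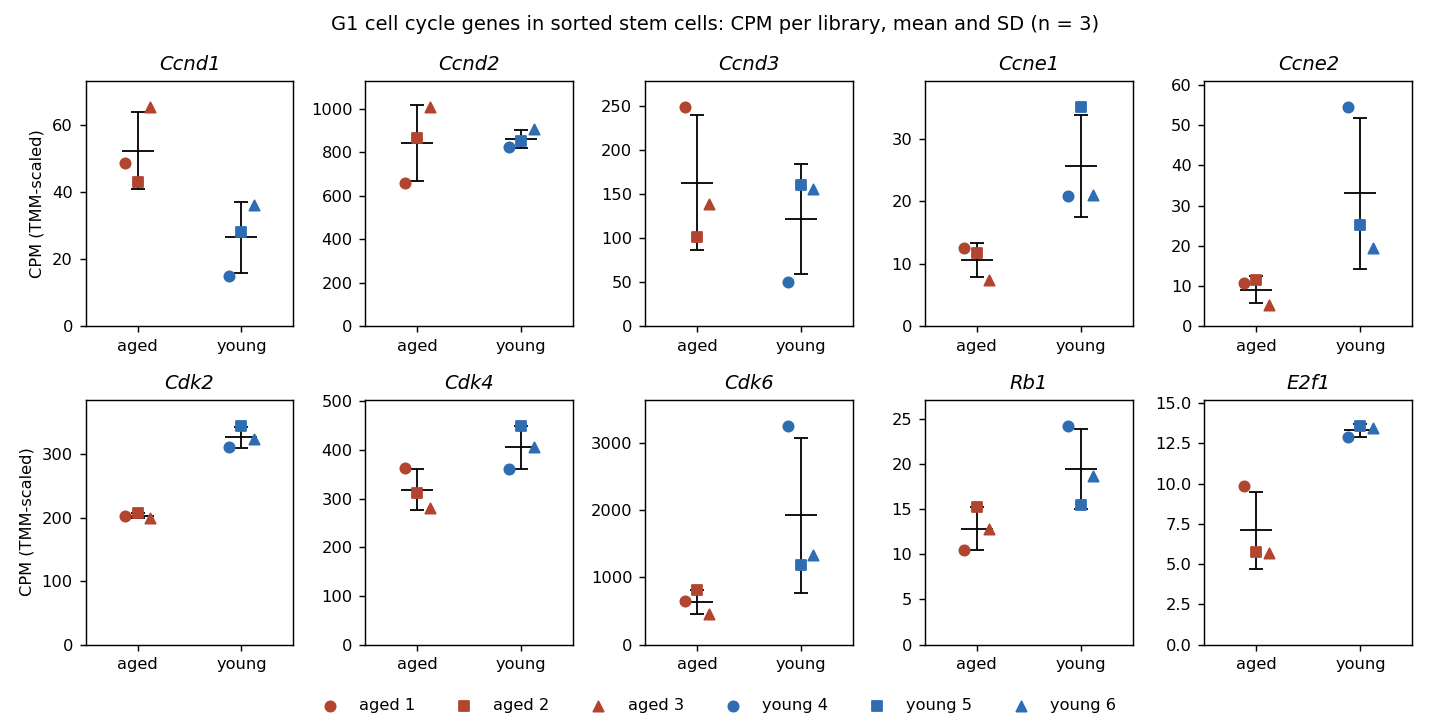
TMM-scaled CPM of each of the 10 genes by library, aged left and young right, with a linear axis from 0 in each panel. Bars show mean and SD (n = 3 each). Cdk2 stood at 199 to 207 CPM in aged and 311 to 345 CPM in young libraries, and the young Cdk6 values were spread by young 4 at 3262 CPM.

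Set by level per length (CPM per kb of the gene length in the table), the G1 genes spanned a wide range. Cdk4, a partner of the D-type cyclins, was the highest member in both groups, with 238 ± 31.1 CPM per kb in aged and 303 ± 33.0 CPM per kb in young cells (SD, n = 3 each). Averaged over the 6 libraries it stood at percentile 97.9 of the tested genes, with Ccnd2 at 95.2, Cdk6 at 93.8 and Cdk2 at 91.7. Ccnd3 stood at percentile 76.2, Ccne1 at 54.1, Ccnd1 at 52.3 and Ccne2 at 46.2. Rb1 and E2f1 were the lowest, at percentiles 33.9 and 32.7. Below Cdk4, aged cells had 138 ± 28.6 CPM per kb of Ccnd2, 64.7 ± 1.22 of Cdk2 and 55.3 ± 15.1 of Cdk6, and the values of Cdk2 and Cdk6 overlapped. In young cells the order was Cdk6 at 167 ± 101, Ccnd2 at 141 ± 6.67 and Cdk2 at 104 ± 5.43 CPM per kb. Young Cdk6 stood at 283, 102 and 116 CPM per kb, and so overlapped Cdk4, Ccnd2 and Cdk2.

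Cyclin D1, encoded by Ccnd1 (mm10 chromosome 7, 144929931 to 144939925, minus strand), is the D-type cyclin most often linked to growth factor signals. It stood at 48.6, 43.0 and 65.2 CPM in aged libraries and at 15.0, 28.2 and 36.1 CPM in young 4, young 5 and young 6. All 3 aged values lay above all 3 young values, and young 4 was the lowest. The log2 fold change was 0.98 ± 0.33 (SE), a value 1.97-fold higher in aged cells, with an adjusted p of 0.131 by edgeR, so it did not pass. Without young 4 the log2 fold change was 0.68 ± 0.22, and over all 17 alternatives it kept a positive sign. Its interval overlaps Oraov1 on the other strand by 818 bases, and the kit does not mark strand.

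Ccnd2 (chromosome 6, 127125709 to 127151048, minus strand), which encodes cyclin D2, carried most of the D-type cyclin RNA. It stood at 658, 867 and 1007 CPM in aged and 825, 854 and 906 CPM in young libraries. The young values lay inside the aged range. Its log2 fold change was -0.03 ± 0.21, and its sign turned under 6 of 17 alternatives, among them upper-quartile scaling (0.04) and library totals alone (0.13). Ccnd3 (chromosome 17, 47505051 to 47599688, plus strand), the cyclin D3 gene, stood at 248, 102 and 139 CPM in aged and 49.6, 161 and 155 CPM in young libraries. Aged 1 was the highest and young 4 the lowest, and the other 4 lay between 102 and 161 CPM. Its log2 fold change was 0.42 ± 0.50 (adjusted p = 0.609 by edgeR), and was 0.02 without young 4 and -0.02 without aged 1.

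As shares of the summed D-type level per length, Ccnd1 made up 6.25 ± 0.716% in aged and 3.30 ± 1.02% in young cells (SD, n = 3 each), with aged libraries between 5.48% and 6.90% and young libraries between 2.21% and 4.23%. Ccnd2 made up 76.0 ± 9.79% in aged and 83.3 ± 6.92% in young cells, and its ranges overlapped. The sum itself was 180 ± 21.5 CPM per kb in aged and 170 ± 19.9 CPM per kb in young cells, a difference smaller than the spread between libraries.

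**Figure D2:**
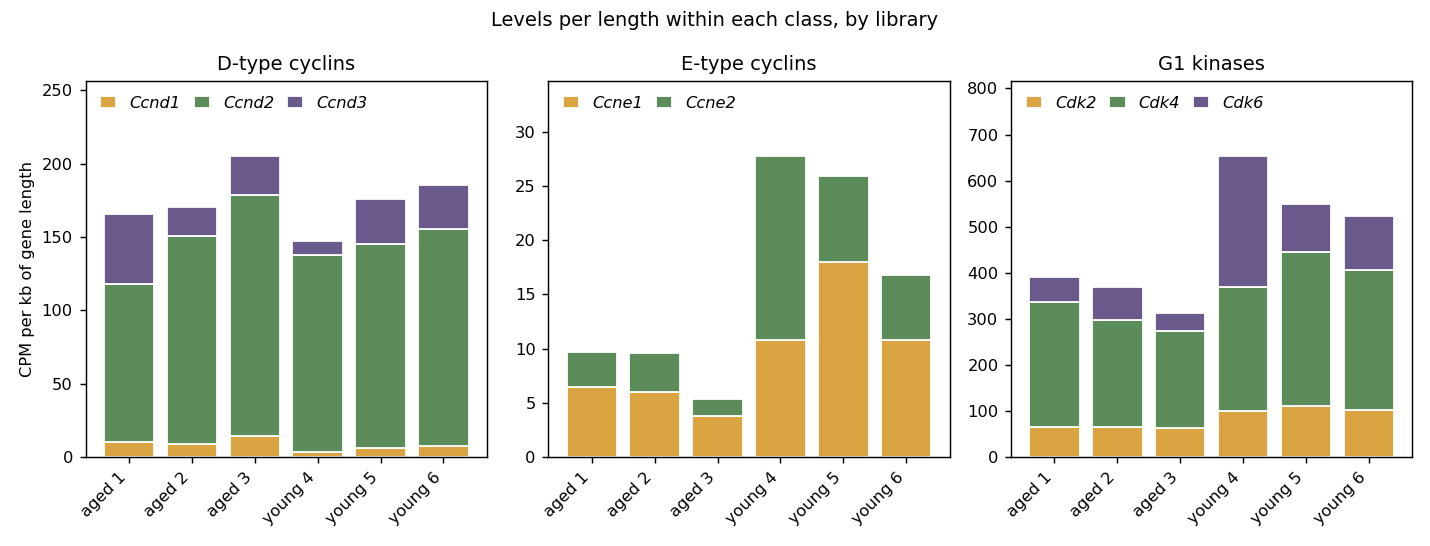
Stacked levels per length (CPM per kb, linear axis from 0) of the D-type cyclins, the E-type cyclins and the kinases in each library, aged left and young right. Ccnd2 is the tallest part of every D-type bar, E-type bars are at most 9.74 CPM per kb in aged libraries and at least 16.8 in young ones, and Cdk6 is broadest in young 4.

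The E-type cyclin genes and Cdk6 had the 3 largest fitted folds among the members. Ccne1 (chromosome 7, 38097984 to 38107490, minus strand) encodes cyclin E1, an activator of Cdk2. It stood at 12.5, 11.8 and 7.38 CPM in aged and 20.9, 35.1 and 21.0 CPM in young libraries, so the groups did not overlap. Its fitted level was 2.43-fold lower in aged cells (log2 fold change -1.28 ± 0.31, adjusted p = 0.0593 by edgeR) and did not pass. Without young 4 the adjusted p was 0.0456 by edgeR and with each other library left out it ran from 0.0976 to 0.196.

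Ccne2 (chromosome 4, 11191351 to 11204779, plus strand) encodes cyclin E2, the other Cdk2 partner of this class. It stood at 10.6, 11.5 and 5.15 CPM in aged and 54.5, 25.3 and 19.4 CPM in young libraries. Young 4 had more than any other library and aged 3 the least. The log2 fold change was -1.86 ± 0.47 (adjusted p = 0.0669 by edgeR), and -1.32 ± 0.35 without young 4. Its interval overlaps Ints8 on the other strand by 5622 bases, with 162 to 309 counts of Ints8 per library. Together the E-type level was 8.26 ± 2.48 CPM per kb in aged and 23.5 ± 5.85 CPM per kb in young cells (SD, n = 3 each), with no overlap between groups. Ccne1 made up 62.8% to 70.3% of it in aged libraries, against 38.8% in young 4 and up to 69.6% in the other young libraries.

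Cdk2 (chromosome 10, 128697939 to 128705051, minus strand), the kinase of the E-type cyclins, was the member with the smallest p. It stood at 202, 207 and 199 CPM in aged and 311, 345 and 324 CPM in young libraries. Its values were tight in both groups, with a coefficient of variation of 1.88% in aged and 5.21% in young libraries, and the lowest young value was far above the highest aged one. Cdk2 fell 1.61-fold in aged cells (log2 fold change -0.69 ± 0.15, adjusted p = 0.0451 by edgeR). The call lay close to the threshold: leaving out aged 1, aged 2, aged 3, young 5 or young 6 lost it each time, with adjusted p from 0.114 to 0.201 by edgeR, and leaving out young 4 kept it at 0.0200. Over all genes, the lower calls numbered 350 without young 4, 36 without aged 1 and 3 to 6 without any other single library, against 201 with all 6. With all 6 libraries, edgeR also lost the call with upper-quartile scaling (adjusted p = 0.0579), library totals alone (0.148) and no low-count filter (0.0665). The call was lost as well with a filter of 5 CPM or more in 3 libraries (adjusted p = 0.0531 by edgeR) and with robust empirical Bayes (0.0520). Cdk2 was called under 7 of 17 alternatives, and its log2 fold change stayed between -0.85 and -0.53 over all 17.

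Cdk4 (chromosome 10, 127063603 to 127067282, plus strand) stood at 363, 311 and 281 CPM in aged and 362, 450 and 406 CPM in young libraries. Only aged 1 reached the young range, where young 4 was the lowest. Its log2 fold change was -0.35 ± 0.18 (adjusted p = 0.268 by edgeR).

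Cdk6 (chromosome 5, 3343893 to 3531005, plus strand) stood at 643, 808 and 459 CPM in aged and 3262, 1179 and 1337 CPM in young libraries. The groups did not overlap, and young 4 had more than any other library by a wide margin, with 41031 counts. The log2 fold change was -1.60 ± 0.44, a value 3.03-fold lower in aged cells, but with an adjusted p of 0.0809 by edgeR it did not pass. Without young 4 the log2 fold change was -1.003 ± 0.24, with an adjusted p of 0.0543 by that test. Leaving out aged 2 as well as young 4 gave -1.23 ± 0.19 (adjusted p = 0.0410 by edgeR). Taking out each library's trend over GC content and length gave -2.32 ± 0.63. As a share of the summed kinase level per length, Cdk6 made up 15.3 ± 3.28% in aged and 28.1 ± 13.4% in young cells, with 43.4% in young 4, while Cdk2 made up 18.2 ± 1.94% and 18.3 ± 2.72% in aged and young cells (SD, n = 3 each). The summed kinase level was 358 ± 40.4 CPM per kb in aged and 575 ± 68.7 CPM per kb in young cells, ranging from 313 to 392 and from 523 to 653.

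**Figure D3:**
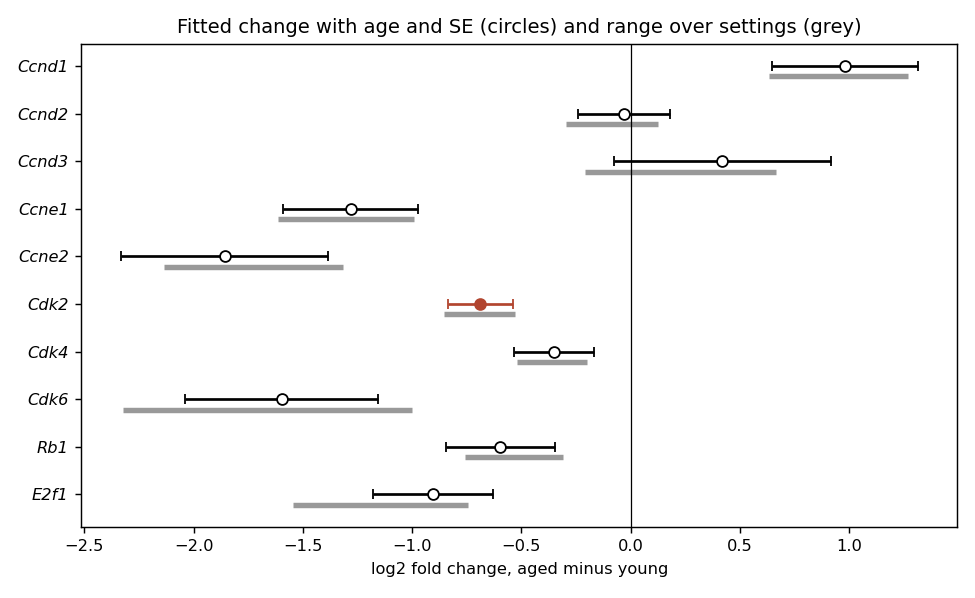
Log2 fold change, aged minus young, of each gene, with circles and bars for the fitted value and its SE and grey bars for the range over 17 alternative settings. The filled circle marks Cdk2, the only member called. The grey bars of Ccnd2 and Ccnd3 cross 0 and those of the other 8 genes do not.

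Ratios of RNA between partners of a class do not depend on library scaling, and 7 were compared with a two-sided exact permutation test, whose smallest possible p with 3 against 3 libraries is 0.1. These ratios are of CPM, not corrected for length, so only their difference between the ages is read. The log2 ratio of Cdk4 to Cdk6 was -0.82, -1.38 and -0.71 in aged and -3.17, -1.39 and -1.72 in young libraries. The groups did not overlap, but aged 2 and young 5 nearly met. The mean difference was 1.124, or 2.18-fold toward Cdk4 (exact p = 0.1, adjusted p = 0.233 over the 7 ratios), and 0.58 without young 4. The log2 ratio of Ccnd1 to Ccnd2 differed by 1.10 toward Ccnd1 and that of Cdk2 to Cdk4 by -0.33, each with no overlap, an exact p of 0.1 and an adjusted p of 0.233. For Ccne1 to Ccne2 the difference was 0.53 (exact p = 0.6), and it was -0.03 without young 4.

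**Figure D4:**
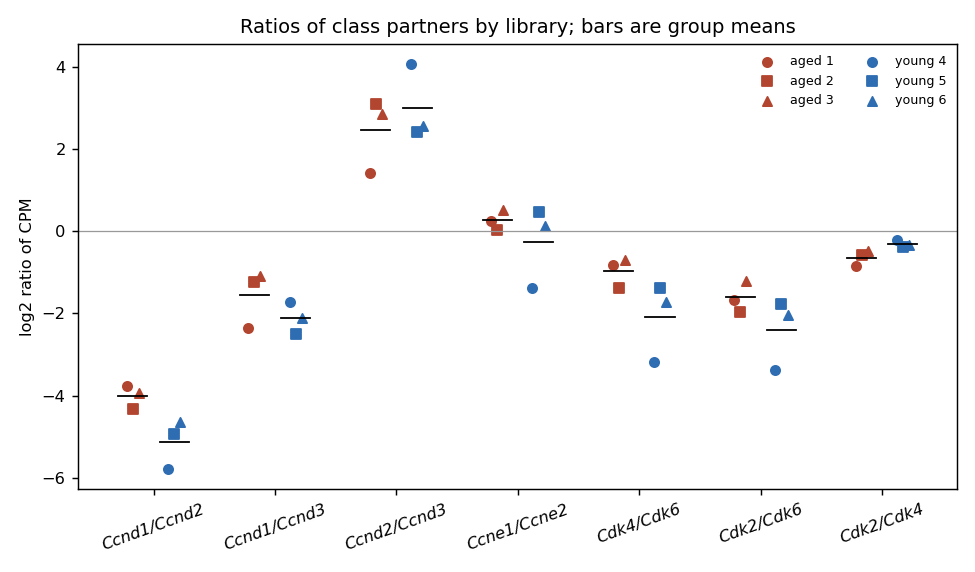
Log2 ratio of CPM between partners of a class in each library, aged left and young right of each pair, with bars for group means. Aged and young points are separate for Ccnd1/Ccnd2, Cdk4/Cdk6 and Cdk2/Cdk4, and young 4 is the lowest point of the ratios to Cdk6.

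Rb1 (chromosome 14, 73195502 to 73325791, minus strand) encodes the Rb protein, which holds E2F factors in check. It stood at 10.5, 15.2 and 12.9 CPM in aged and 24.2, 15.5 and 18.7 CPM in young libraries. Aged 2 and young 5 were nearly equal. The log2 fold change was -0.60 ± 0.25 (adjusted p = 0.194 by edgeR), and -0.31 with the GC and length trend removed. Lpar6 lies inside its interval on the other strand, with 1997 to 7124 counts per library against 219 to 426 for Rb1. Rcbtb2 overlaps its end. E2f1 (chromosome 2, 154559400 to 154569892, minus strand), the transcription factor that Rb restrains, stood at 9.88, 5.73 and 5.71 CPM in aged and 12.9, 13.6 and 13.5 CPM in young libraries. Young values were tight, and aged 1 was the aged library nearest to them. Its log2 fold change was -0.91 ± 0.27 (adjusted p = 0.101 by edgeR), and the adjusted p was 0.0522 without aged 1 and 0.0137 by DESeq2. With the GC and length trend removed the log2 fold change was -1.55 (adjusted p = 0.0195 by edgeR).

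The rest of the pathway was read from 8 gene lists. In 13413 tested genes 1.5% were called lower and 4.26% higher in aged cells, and the median log2 fold change was 0.04. The 10 G1 genes had a median of -0.64. Since lower calls over all genes were so few without any library but young 4 (3 to 36), a list's count of 0 there is near the background. Of the 11 other Rb, E2F and dimer partner genes, 2 fell, none rose and the median was -0.40. Tfdp1, which encodes the DP1 partner of E2F factors, stood at 90.9, 87.7 and 69.4 CPM in aged and 169, 143 and 140 CPM in young libraries, and fell 1.82-fold. Rbl1, which encodes the pocket protein p107, stood at 60.7, 70.4 and 52.5 CPM in aged and 153, 109 and 102 CPM in young libraries, and fell 1.98-fold. Adjusted p by edgeR was 0.0393 for Tfdp1 and 0.0454 for Rbl1. Leaving out young 4 kept both calls, and leaving out any other library lost both. Rbl2, which encodes the pocket protein p130 of resting cells and was added here after its values were seen, had a log2 fold change of 0.66 ± 0.19 (adjusted p = 0.0907 by that test).

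Of the CDK inhibitor genes, 5 of 7 were tested, and 1 rose and none fell. Cdkn2c, an INK4 inhibitor of Cdk4 and Cdk6, stood at 23.9, 19.5 and 16.99 CPM in aged and 8.90, 6.68 and 7.06 CPM in young libraries. The groups were well apart, and the gene rose 2.67-fold (log2 fold change 1.42 ± 0.23, adjusted p = 0.0235 by edgeR). Leaving out young 4 kept its call (adjusted p = 0.0200 by edgeR), and leaving out any other library lost it (0.0567 to 0.0923), where higher calls over all genes numbered 71 to 246, against 571 with all 6. Cdkn2d, another INK4 gene, had a log2 fold change of -0.30 ± 0.16 (adjusted p = 0.271 by that test). Cdkn2a and Cdkn2b, the INK4 locus genes often linked to ageing, had at most 2 counts in any library and were not tested.

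All 26 E2F target genes of S phase had negative log2 fold changes, beside 47.3% of all tested genes, and the median was -1.09. Libraries of the 2 ages were fully separate, on the lower side, for 18 of the 26, beside 17.6% of all tested genes. The others overlapped, Mcm2 and Dnmt1 among them. Of the 26, 9 fell and none rose. The 9 were the helicase genes Mcm4, Cdc45 and Gins2, the licensing gene Cdc6, the polymerase gene Pola1, the nucleotide genes Rrm1 and Dut, the checkpoint gene Chek1 and the histone RNA gene Slbp. Cdc6 stood at 46.9, 43.0 and 25.6 CPM in aged and 111, 108 and 75.8 CPM in young libraries. Of these targets 9 were called without young 4, 0 without any other single library and 5 when young 4 and aged 2 were both dropped. Lower calls over all genes in those settings numbered 350, 3 to 36 and 216, so the 0 is near the background. DESeq2 called 17, beside 926 lower calls over all genes. Of 13 tested genes of later cyclins, kinases and their activators 1 fell and none rose, with a median of -1.53: Cdc25c, a phosphatase gene of mitotic entry, stood at 13.6, 15.1 and 4.55 CPM in aged and 52.6, 38.6 and 42.5 CPM in young libraries. Ccnb1, the mitotic cyclin B1 gene, had a log2 fold change of -1.84 ± 0.42 (adjusted p = 0.0501 by edgeR). The call of Cdc25c was lost with any single library left out. DESeq2 called 7 genes of this list, and edgeR called 2 without young 4, 1 without aged 1 and 0 without any other single library. Lower calls over all genes numbered 926 by DESeq2, 350 without young 4, 36 without aged 1 and 3 to 6 without any other.

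The DREAM complex represses cell cycle genes with Rb relatives. Of 8 genes of the DREAM and MuvB complexes edgeR called 0, DESeq2 4 and limma-voom 1, and the median log2 fold change was -0.78. By edgeR, 5 were lower at an unadjusted p under 0.05, beside 11.1% of all tested genes. Over all 13413 tested genes DESeq2 called 926 lower and 1255 higher, and limma-voom 237 lower and 580 higher. Lin9, a core MuvB gene, stood at 26.04, 23.9 and 20.0 CPM in aged and 56.0, 35.8 and 40.9 CPM in young libraries. Mybl2, the B-Myb gene, had a log2 fold change of -1.30 ± 0.32 (adjusted p = 0.0597 by that test). Of 14 tested genes of upstream inputs and turnover, edgeR called 0, DESeq2 2 and limma-voom 0, beside 2181 of all 13413 genes by DESeq2. By edgeR, p before adjustment was under 0.05 for 2 lower genes and 1 higher gene, beside 11.1% lower and 13.9% higher of all tested genes. Mycn, which encodes N-Myc, stood at 642, 304 and 565 CPM in aged and 191, 273 and 232 CPM in young libraries (log2 fold change 1.121 ± 0.31, adjusted p = 0.0789 by edgeR). Skp2, an F-box gene of the ligase that removes the inhibitor p27, had a log2 fold change of -0.86 ± 0.22 (adjusted p = 0.0662 by that test). Of 13 tested atypical cyclin and CDK genes edgeR, DESeq2 and limma-voom each called 0. For 1 higher gene and 1 lower gene p before adjustment was under 0.05 by edgeR, beside the same shares of all tested genes. Ccng1, a p53 target, had a log2 fold change of 0.39 ± 0.16 and Ccng2 one of -0.56 ± 0.24.

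**Figure D5:**
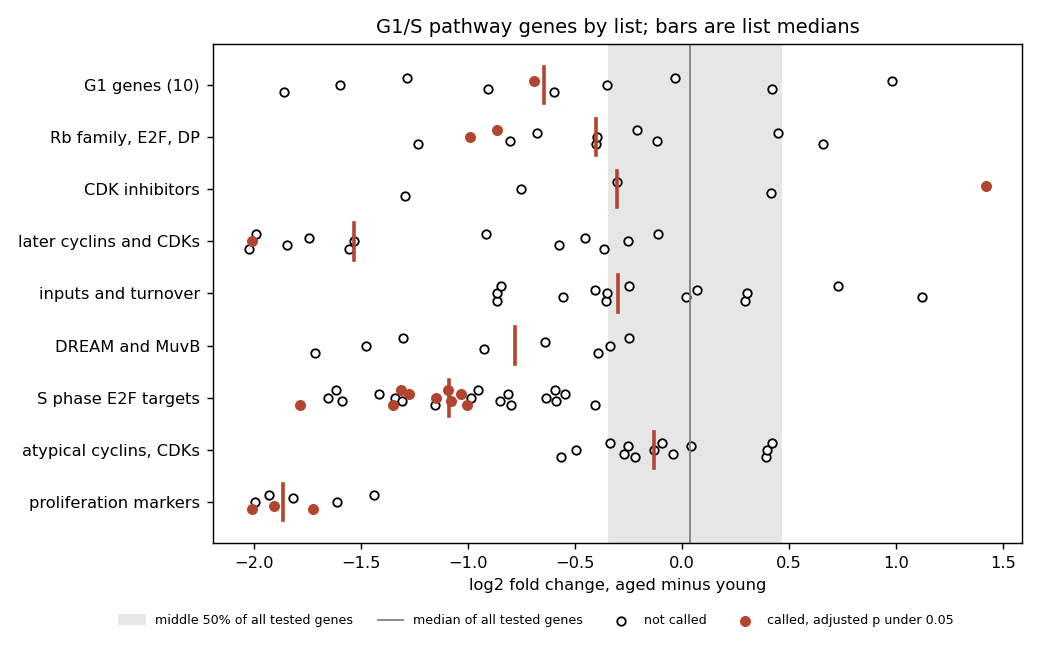
Log2 fold change, aged minus young, of every tested gene of the 10 G1 genes and of 8 pathway lists, with red bars for list medians and filled points for called genes. The grey band is the middle 50% of all tested genes, and all 26 S phase targets and all 8 proliferation markers lie left of 0.

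All 8 proliferation markers and 4 of 5 tested early progenitor markers had negative log2 fold changes. Of 8 proliferation markers 3 fell (Cdc20, Tpx2 and Bub1) and none rose, with a median log2 fold change of -1.86. Without young 4, 2 were called, beside 350 lower calls over all genes. Without any other single library 0 were called, beside 3 to 36. The 8 markers' median deviation from each gene's mean over libraries was -0.449, -0.551 and -1.93 in aged 1, aged 2 and aged 3 and 1.43, 0.795 and 0.730 in young 4, young 5 and young 6. Among the members lower in every aged library, Ccne1, Ccne2, Cdk2 and Cdk6 were likewise lowest in aged 3. E2f1 was nearly equal in aged 2 and aged 3, and Rb1 was lowest in aged 1. Ccne2, Cdk6 and Rb1 were highest in young 4, but Ccne1, Cdk2 and E2f1 were highest in young 5. Of the genes of the gate, Ly6a (Sca-1) rose, Cd48, which the gate excludes, fell, and Kit (adjusted p = 0.305 by edgeR) and Slamf1 (CD150, 0.0891) were not called. Procr, Fgd5 and Mecom, stem cell genes outside the gate, rose, and Hlf was not called. These 8 summed to 1717 to 2061 CPM in aged and 866 to 1405 CPM in young libraries. Of the 5 tested early progenitor markers 4 fell (Cd34, Flt3, Satb1 and Cd48, the gene named above). The other, Mpo, had a log2 fold change of 0.26 (adjusted p = 0.777 by edgeR). The summed level of the list was 155 to 183 CPM in aged and 273 to 315 CPM in young libraries. The part of such cells in the lower G1 kinase and cyclin values was not tested. Of the lists for mature cells, granulocyte markers summed to at most 5.47 CPM in any library, and both tested genes of the T and NK list, Cd4 and Nkg7, fell, with a sum of 17.7 to 46.1 CPM in aged and 103 to 186 CPM in young libraries. Nkg7 made up most of that sum, at 17.5 to 45.7 CPM in aged and 98.85 to 183 CPM in young libraries, with Cd4 at up to 3.69 CPM. Cd3e, Cd3d, Ncr1 and Gzma had at most 7 counts in any library, and Cd8a had 0 counts in all 6. Ppbp of the 6 megakaryocyte markers and Cxcl12 of the 6 tested endothelial and stromal markers also fell, and no erythroid, monocyte or B cell marker was called. The megakaryocyte, endothelial and stromal, erythroid, monocyte and B cell lists each held genes of both directions, and their summed levels overlapped between the ages. The log2 fold change was 1.24 for Vwf but -2.16 for Ppbp, and 1.31 for Kdr but -2.20 for Cxcl12. Hbb-bs had 2.48 and Hba-a2 2.39 (adjusted p = 0.0850 and 0.0737 by edgeR), while Klf1 had -1.35. Cd79a had 3.21 and Cd79b -0.34.

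Genes with the pattern nearest to a member were named by Pearson's r of log2 CPM over the 6 libraries among 9350 genes of at least 10 CPM on average. Nearest to Cdk2 were Cby1 (0.9964), Abt1 (0.9946) and Ppic (0.9945), each tight within a group and lower in aged cells. Nearest to Cdk6, the uncalled member with the highest CPM, were Tango2 (0.9992), D330045A20Rik (0.9991) and Cenpq (0.9985), each highest in young 4 as Cdk6 was. With 6 points from 2 groups, values this high are a description of the libraries.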

How the data were processed

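RNA-seq measured 6 libraries of sorted mouse cells. The SMART-Seq v4 kit, per the labels' protocols, made cDNA with no strand mark, and reads were single. Per the submitters' processing notes, Trimmomatic, STAR 2.6.0, HTSeq 0.11.1 and edgeR were used with build mm10. Annotation and counting mode: not given in the sources used here. Per gene, the authors deposited unscaled whole-number counts, coordinates and a length in kb.

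R 4.3.3 and edgeR 4.0.16 (filterByExpr, TMM, glmQLFit, glmQLFTest) tested the counts in 1 fit over all 6 libraries with age as the only term, adjusting (Benjamini-Hochberg) over 13413 genes at a threshold of 0.05. The fit was tested on simulated data. Log2 fold changes are aged minus young, and folds are fitted. Spreads are SDs over 3 libraries. Alternatives were 3 scalings, 2 filters, DESeq2 1.42.0, limma-voom (limma 3.58.1) with and without quality weights, robust empirical Bayes, splines of 4 degrees of freedom over GC content and length (GENCODE transcripts), each library left out, and both young 4 and aged 2 left out. Replicate numbers pair nothing, and replicates of a group always differed beyond sampling noise. Chi-square over its degrees of freedom was 10.7 between young 5 and young 6, 197 and 210 between these and young 4, and 24.5 to 78.3 between aged libraries.

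The members and lists were chosen with earlier results of these data known. Named were all members, up to 4 called genes of a list or the 2 of smallest p, and the nearest patterns. Some named values were left out for length.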

Additional observations from a re-analysis of the deposited data

How the results depend on the processing

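Of 170 refits of the 10 fold changes (17 alternatives each), 8 turned the sign, all of Ccnd2 or Ccnd3 and none called: Ccnd2 was 0.0423 with upper-quartile scaling, 0.13 with library totals alone, 0.009 at 5 CPM or more in 3 libraries and 0.0609 with quality weights, and Ccnd3 was -0.21 with quality weights. With 1 library left out, Ccnd2 ran from -0.18 to 0.12, Ccnd3 from -0.0223 to 0.66 and the log2 ratio of Ccne1 to Ccne2 from -0.0298 to 0.90. Library totals alone moved the median of all genes by 0.16, and relative to that median Ccnd2 stood at -0.07 both ways and Cdk2 at -0.73. Removing the GC and length trend moved the median by -0.11, where Cdk2 stood at -0.78 relative to it, and turned the share of higher genes among calls to 50.5% (661 higher, 649 lower) from 74.0% (571 higher, 201 lower). The same setting gave 0.63 for Ccnd1, -0.30 for Ccnd2 and 0.14 for Ccnd3. Library totals alone gave -0.20 for Cdk4, and quality weights -0.35 for Rb1. The share of higher calls was 57.5% by DESeq2 and 56.8% with quality weights.

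Members called numbered 0 with upper-quartile scaling, library totals alone, the 5 CPM filter or robust empirical Bayes, 3 without a low-count filter (Cdk2 not among them), 3 with the GC and length trend removed, 5 by DESeq2, 7 by limma-voom with quality weights (Ccnd1 the only higher one), 2 (Cdk2 and Cdk6) when young 4 and aged 2 were dropped together, and 0 to 2 with 1 library left out. Genes called numbered 443 at the 5 CPM filter, 872 with upper-quartile scaling, 672 with library totals alone and 690 with robust empirical Bayes. They numbered 970 without a low-count filter, 2181 by DESeq2, 4094 with quality weights and 1310 with the trend removed. With both young 4 and aged 2 left out 650 were called, and with 1 library left out 74 to 1029. The cause of these moves was not tested. No paired analysis was possible because aged replicates are numbered 1 to 3 and young ones 4 to 6.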
